A study of Homo sapiens with 8 samples.

Results

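The zinc finger gene clusters of chromosome 19 were examined as a pair of windows in which peaks of an RBPMS eCLIP experiment were listed. The first window runs from position 19800000 to 24400000 on build hg19 (4.6 Mb next to the centromere, called 19p12 here). The second runs from 56500000 to 59128983 (2.63 Mb at the end of the long arm, called 19q13.4 here). Members were chosen by position alone, as every listed peak that overlaps either window on either strand. This gave 1012 peaks of 194003 listed in all, 503 in the 19p12 window and 509 in the 19q13.4 window. All libraries come from HUES6, an established human embryonic stem cell line of wild-type genotype, kept in FTDA medium and labelled as control. Dishes of about 20M cells were crosslinked with UV light at 400 mJ/cm2, and RNA held by RBPMS was pulled down with an antibody in 4 eCLIP libraries. A further 4 input libraries, without antibody, enter through the authors' comparison per peak. HUES6 is 1 cell line, and the labels name no separate cultures, so the spread over libraries may be technical.

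RBPMS is an RNA-binding protein with a single RNA recognition motif that is known to bind RNA with repeated CAC triplets, and it has been studied in splicing, RNA localisation and translation. The windows hold large families of C2H2 zinc finger genes, many of which also carry a KRAB domain. KRAB zinc finger proteins bind DNA and recruit the co-repressor TRIM28, and many of them silence transposable elements in embryonic stem cells. The genes arose by repeated tandem duplication, so neighbouring transcripts resemble each other closely, and reads from such genes can be hard to place. For the authors' way of placing them, the sources used here give nothing.

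The order of the cluster genes was looked up by name. Of the 34 zinc finger gene names written down for 19p12, all 34 were found in RefSeq's table for GRCh38.p14, in a row from ZNF101 to ZNF254. That row holds 39 protein-coding genes, and 37 of them have zinc finger symbols, among them ZNF43, ZNF91 and ZNF208. The 60 names for the distal long arm were all found, from ZNF582 to MZF1, in a row of 78 protein-coding genes with 61 zinc finger symbols. The other 17 in that row include TRIM28 itself. The ends of these rows were set by the names and were not matched to the window edges. The counts thus describe the rows and not the whole windows. That table is on another build than the peaks, so it served for names and neighbours only, and no peak is assigned to a gene here. Regions are therefore given by position and strand, and sequence of the files' build was not used here.

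Each list gives, per peak, the authors' log2 fold of immunoprecipitation over input and a −log10 p of that comparison. An enriched peak had a log2 fold of at least 3, which is 8-fold over input, and a −log10 p of at least 3. Enriched peaks sharing at least 1 base on 1 strand were joined. A joined region that was enriched in at least 3 of the 4 libraries is called reproducible. Between libraries 3 and 4 the read numbers differed by less than sampling noise (chi-square test over 317 shared peaks, 0.95 per degree of freedom, p = 0.71). They were counted as 1 sample, so means are over n = 3 samples, and the other 5 pairs gave 3.54 to 4.98. The lists of libraries 1 to 4 held 25759, 118375, 20254 and 29615 peaks, and the median peak rested on 3 or 4 immunoprecipitation reads where reads could be worked out.

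The windows were sparsely listed for their size. They make up 12.2% of the length of chromosome 19, and they held 4.53%, 8.48%, 7.94% and 6.96% of the chromosome's listed peaks in libraries 1 to 4. The 19p12 window listed 39, 332, 51 and 81 peaks in libraries 1 to 4, which is 8.48, 72.2, 11.1 and 17.6 per Mb. The 19q13.4 window listed 77, 311, 56 and 65 peaks, or 29.3, 118, 21.3 and 24.7 per Mb. Listing was denser in the 19q13.4 window in each of the 4 libraries, by 3.45, 1.64, 1.92 and 1.40 times, with a mean ratio of 2.25 ± 1.04 (SD, n = 3). The exact sign-flip permutation test of the log2 ratio, two-sided, gave p = 0.25, the smallest that 3 samples allow. A peak needs reads to be listed, so this density follows read cover, and the part of binding in it was not tested.

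Within each window the peaks were uneven. In the 19p12 window the bins of 0.5 Mb with most listed peaks were the first (19800001 to 20300000, 105 peaks over the 4 lists) and the one from 23800001 to 24300000 (111 peaks). The lists used here hold no peak between 22034717 and 22877620, a gap of 843 kb. In the 19q13.4 window the counts were 124 from 56500001 to 57000000, 12 from 57000001 to 57500000 and 28 from 57500001 to 58000000. They were 134 and 147 in the next pair of such bins and 64 in the last 129 kb. The widest gap there, 57347332 to 57711695, spanned 364 kb.

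When listed peaks were merged regardless of fold, the 19p12 window had 431 stretches, of which 388 were listed in 1 library (287 of them in library 2, the longest list) and 13 in at least 3 libraries. The 19q13.4 window had 400 stretches, 353 in 1 library (264 in library 2) and 19 in at least 3. Stretches listed in 1 library were thus 90.0% in 19p12 and 88.25% in 19q13.4, beside 83.6% on the rest of the chromosome and 87.0% over all chromosomes. Those in at least 3 libraries were 3.02% and 4.75%, beside 6.44% and 4.94%. The share of listed peaks on the plus strand was 64.2% ± 2.51 in the 19p12 window and 52.9% ± 8.74 in the 19q13.4 window (SD, n = 3), beside 51.5% ± 1.76 on the rest of the chromosome. In libraries 1 to 4 the 19p12 share was 66.7%, 64.2%, 52.9% and 70.4%, and the 19q13.4 share 42.9%, 58.5%, 62.5% and 52.3%. The rest of the chromosome gave 49.5%, 52.8%, 51.2% and 53.3%. Library 3 thus stood close to it in 19p12, which the average with library 4 does not show. Peaks below input, with a log2 fold under 0, made up 14.0% ± 7.22 of the 19p12 list and 8.07% ± 7.67 of the 19q13.4 list, beside 9.01% ± 10.4 on the rest of the chromosome (SD, n = 3).

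Enriched peaks were few in the 19p12 window and more frequent in the 19q13.4 window. In the 19p12 window, 1 of 39 listed peaks passed in library 1, 4 of 332 in library 2, 4 of 51 in library 3 and 8 of 81 in library 4. Over all chromosomes 15.9%, 5.38%, 12.6% and 12.7% of the listed peaks of these libraries were enriched. The 19p12 shares were 2.56% (exact binomial 95% interval 0.065 to 13.5), 1.20% (0.33 to 3.06), 7.84% (2.18 to 18.9) and 9.88% (4.36 to 18.5). In the 19q13.4 window, 18 of 77, 15 of 311, 10 of 56 and 17 of 65 were enriched, which is 23.4% (14.5 to 34.4), 4.82% (2.72 to 7.83), 17.9% (8.91 to 30.4) and 26.2% (16.03 to 38.5). The rest of chromosome 19 gave 18.9%, 6.66%, 17.2% and 15.1%. These intervals cover counting error only. They take each listed peak as a separate measurement, although some peaks abut within 1 stretch, so they may be too narrow.

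**Figure D1:**
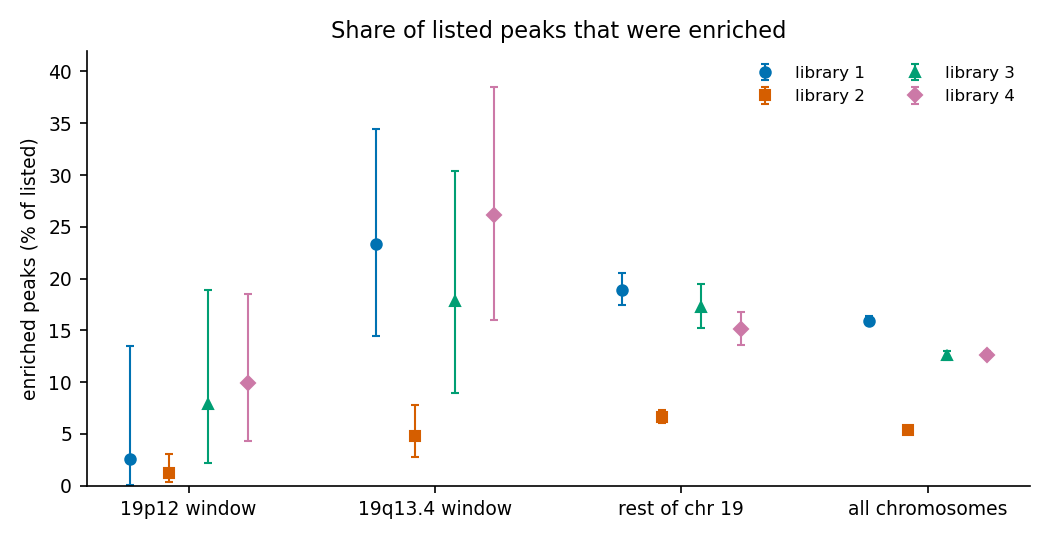
Share of listed peaks that were enriched (percent, vertical axis) in each eCLIP library, for the 19p12 window, the 19q13.4 window, the rest of chromosome 19 and all chromosomes. Symbols are libraries 1 to 4, and bars are exact binomial 95% intervals of the counts. The 19p12 values, 1.20% to 9.88%, lie below the same library's value on the rest of the chromosome in each library.

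The first comparison set the 19p12 window against the rest of the same chromosome. Its enriched share differed by -16.4, -5.45, -9.40 and -5.24 points in libraries 1 to 4, lower in 4 of 4 libraries. The mean difference was -9.72 ± 5.84 points (SD, n = 3; exact sign-flip permutation test, two-sided, p = 0.25, which is as low as 3 samples can go). Libraries 1 and 2 kept the 19p12 interval wholly under the chromosome's share, while in libraries 3 and 4 the interval contained it. Such intervals take peaks as separate measurements and are no test over samples. Without library 1 the difference was -6.39 points. The number of peaks above input with many reads also differed between the windows. Peaks with at least 13 immunoprecipitation reads, or a −log10 p of at least 15.66, numbered 0, 18, 2 and 5 in the 19p12 window, and of these 0, 4, 2 and 5 were enriched. In the 19q13.4 window they numbered 12, 28, 9 and 16, with 9, 15, 9 and 15 enriched. Reads were not worked out for peaks at or below input, so such peaks are missing from these counts whatever their depth. Read number enters the p of the enrichment call, so these counts are no separate evidence, and the part of depth in the difference was not tested.

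The second comparison set the 19q13.4 window against the rest of the chromosome, and the libraries were split. The difference was 4.44, -1.83, 0.61 and 11.0 points in libraries 1 to 4, a mean of 2.81 ± 4.08 points (SD, n = 3; exact sign-flip permutation p = 0.50), within the spread of the samples. It was 5.13 points without library 2, 4.55 without library 3 and 1.07 without library 4. It turned to -3.00 ± 1.15 points without the peaks of 1 stretch of 658 bases that is described next, with values of -3.22, -4.02, -7.04 and 3.52 in libraries 1 to 4, so library 4 stayed above 0. Against the last 2.6 Mb of the other chromosomes it stood at -5.16 ± 1.68 points, with values of -3.67, -6.98, -9.07 and -0.60 in libraries 1 to 4.

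Between the windows, the enriched share was higher in the 19q13.4 window in 4 of 4 libraries. The difference was 20.8, 3.62, 10.01 and 16.3 points, a mean of 12.5 ± 8.61 (SD, n = 3; exact sign-flip permutation test, p = 0.25, again the lowest 3 samples allow). Without the stretch of 658 bases it was 13.2, 1.44, 2.36 and 8.77 points, a mean of 6.72 ± 5.94, still above 0 in 4 of 4 libraries. Where reads could be worked out, the median peak of the 19p12 window rested on 3, 4, 3 and 4 immunoprecipitation reads in libraries 1 to 4. That of the 19q13.4 window rested on 4 in each library. Peaks at or below input are not in these medians, and the part of read depth in the difference was not tested.

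**Figure D2:**
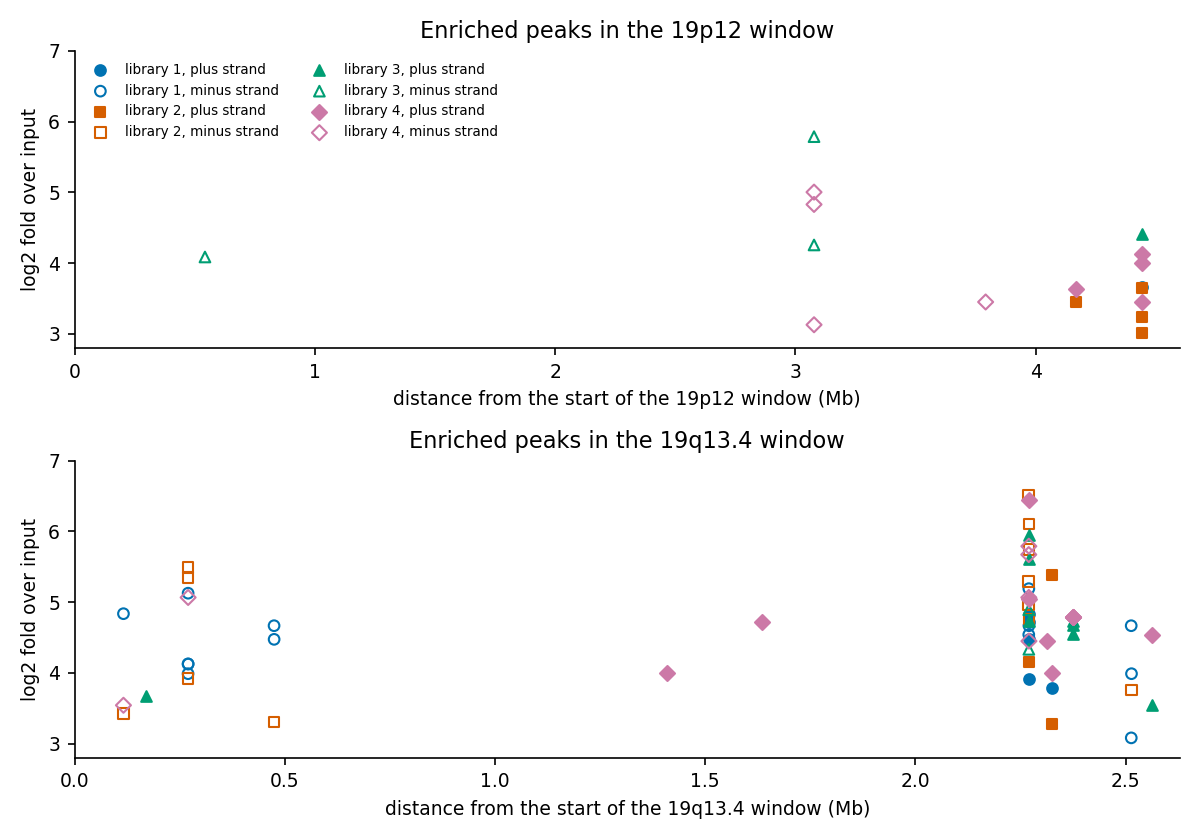
Position of the 77 enriched peaks, as distance in Mb from the start of each window (horizontal axes), against their log2 fold over input (vertical axes). Filled symbols are plus-strand peaks and open symbols minus-strand peaks of libraries 1 to 4. The 19p12 peaks gather near 3.1 and 4.4 Mb, and the tallest column in the 19q13.4 window, near 2.3 Mb, is the stretch enriched on both strands.

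The most enriched place in either window was a stretch of 658 bases at chr19:58769654-58770311, 359 kb from the chromosome end, with enriched peaks on both strands. It held 25 of the 60 enriched peaks of the 19q13.4 window (41.7%), 10 on the plus strand and 15 on the minus strand, and every library listed enriched peaks on both. The plus strand had 1 reproducible region, 58769731 to 58770060, and the minus strand had 3, at 58769702 to 58769892, 58769893 to 58770083 and 58770084 to 58770254. All 330 bases of the plus-strand region were covered by minus-strand regions. Among the 1699 reproducible regions of all chromosomes, 3 shared bases with a reproducible region of the opposite strand. All 3 are here: the plus-strand region and the first pair of minus-strand regions. The stretch was singled out after its values were seen.

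On the plus strand, libraries 1, 2, 3 and 4 had 4, 1, 3 and 2 enriched peaks. The highest log2 fold of each was 4.84, 4.15, 5.94 and 6.45, a mean over samples of 5.06 ± 1.04 (SD, n = 3). Library 2 was the lowest and library 4 the highest. The enriched peaks spanned 58769744 to 58770060 in library 1, 58769871 to 58770058 in library 2, 58769739 to 58770042 in library 3 and 58769731 to 58770043 in library 4. Libraries 1, 3 and 4 thus began within 13 bases of each other and library 2 began over 100 bases further on. Where reads could be worked out, single peaks rested on 18 to 29 immunoprecipitation reads over 1 to 3 input reads. An input of 1 read may stand for none, here and in the regions that follow, and depth limits such folds.

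On the minus strand the order of the libraries was another. The region at 58769702 to 58769892 had log2 folds of 4.54, 6.504, 4.89 and 5.67 in libraries 1 to 4, with a mean of 5.44 ± 0.99, and library 2 was the highest. At 58769893 to 58770083 they were 5.19, 6.11, 4.33 and 5.79, a mean of 5.45 ± 0.57, and both of these regions were enriched in all 4 libraries. At 58770084 to 58770254 the values were 4.67, 5.75, 3.89 and 4.45, a mean of 4.86 ± 0.81 (each SD with n = 3), and library 3 was listed there with 7 reads over 1 but missed the p threshold at a −log10 p of 2.70. Library 2 also had enriched peaks at 58769654 to 58769701 (log2 4.97) and 58770267 to 58770311 (4.76), where no other library listed a peak. Minus-strand peaks rested on 8 to 38 immunoprecipitation reads over 1 to 3 input reads where these could be worked out. Reads of near-identical copies and antisense transcripts at this place were not examined here.

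**Figure D3:**
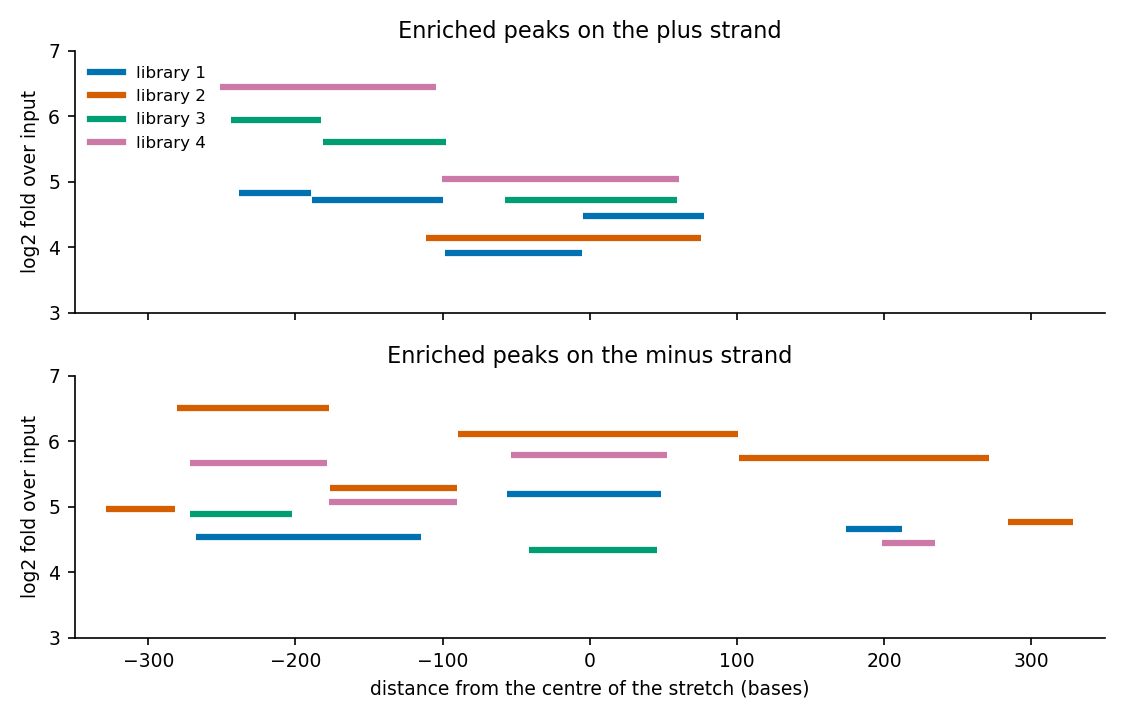
Enriched peaks of the stretch on the plus strand (top) and the minus strand (bottom), drawn as bars from start to end at their distance in bases from the stretch's centre (horizontal axis) and at their log2 fold over input (vertical axis), coloured by library. Plus-strand bars end within 100 bases to the right of the centre, and minus-strand bars of libraries 1, 2 and 4 go on beyond them.

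The other reproducible regions of the 19q13.4 window lay in its first bin of 0.5 Mb and in the bin that holds the stretch. The strongest, chr19:56769720-56770015 on the minus strand, had log2 folds of 5.13, 5.49, 3.41 and 5.07 in libraries 1 to 4, a mean of 4.95 ± 0.64 (SD, n = 3). Library 3, the lowest, had 5 reads over 1 and was not enriched (−log10 p 1.83), while libraries 1, 2 and 4 had 22 over 2, 43 over 1 and 23 over 1. The caller cut this region into 4 enriched peaks in library 1, 3 in library 2 and 1 in library 4. At chr19:56615911-56616140, minus strand, the values were 4.84, 3.43, 3.09 and 3.54, a mean of 3.86 ± 0.85, and library 3 was again listed without passing (4 reads over 1). At chr19:58824334-58824449, plus strand, they were 3.78, 3.28, 3.09 and 4.002, a mean of 3.54 ± 0.25. Library 3 again had 4 reads over 1 there. In each of these 3 regions library 3 passed the fold threshold and missed the p threshold, which took 8 reads over 1 in that library. Next to the last of them, at 58824123 to 58824282, library 2 had a log2 fold of 5.38 from 40 reads over 1, while libraries 1 and 3 had 4 and 3 reads over 1 and library 4 listed no peak.

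The 19p12 window had 2 reproducible regions, and both lay at its end nearest the centromere. At chr19:24243936-24244094, plus strand, the log2 folds were 3.23, 4.41 and 4.13 in libraries 2, 3 and 4, a mean of 3.75 ± 0.73 (SD, n = 2 samples), and library 1 listed no peak. At chr19:24244248-24244345, plus strand, they were 3.67, 3.01, 3.89 and 4.002 in libraries 1 to 4, a mean of 3.54 ± 0.48 (SD, n = 3), and library 3 missed the p threshold at 2.70. Another stretch beside them, 24243848 to 24243931, was enriched in libraries 2 and 4 (3.65 and 3.45) and listed in library 1 at 3.67 with 4 reads over 1. The values within these stretches lay close together, and all 3 are on the plus strand within 498 bases. The single enriched 19p12 peak of library 1 is here.

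**Figure D4:**
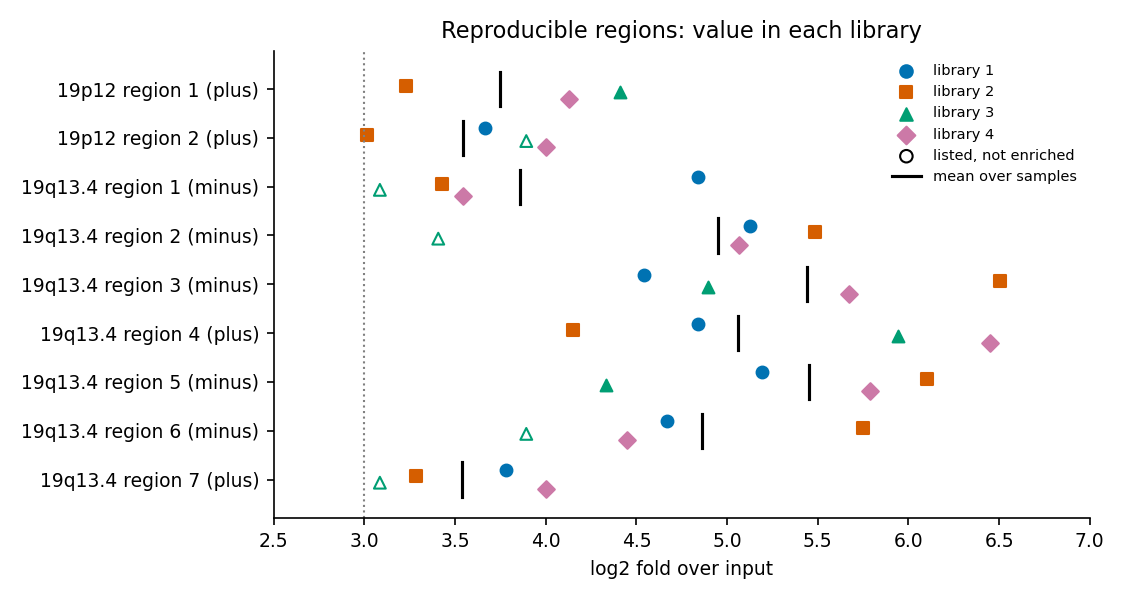
Log2 fold over input (horizontal axis) of the 9 reproducible regions in each library, ordered by position within the 19p12 and 19q13.4 windows, with strand in brackets. Filled symbols are enriched peaks, open symbols are listed peaks that did not pass, black lines are means over samples, and the dotted line is the threshold of 3. Regions 3 to 6 of the 19q13.4 window are the stretch enriched on both strands, and 3 of its 4 means lie above 5.

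Over both windows, 32 merged regions were enriched in at least 1 library, 10 in the 19p12 window and 22 in the 19q13.4 window. Of the 32, 15 came from 1 library, 8 from 2, 6 from 3 and 3 from 4. The 9 reproducible regions were 28.1% of the 32, beside 22.7% of the 7472 merged regions of all chromosomes and 21.6% of the 661 on chromosome 19. The 3 regions enriched in all 4 libraries are 3 of 32, beside 12.6% of all merged regions. Of the 9, 3 are the minus-strand regions of the both-strand stretch, which abut over 553 bases without a shared base. Abutting regions count singly in these numbers, here and over all chromosomes. Reproducible regions numbered 0.43 per Mb in the 19p12 window and 2.66 per Mb in the 19q13.4 window. Both counts are small, and they moved with the rule: asking for -log10 p of at least 5 left 0 and 4. Libraries 3 and 4 count as 2 in the rule although they were treated as 1 sample elsewhere. Enrichment in at least 2 of the 3 samples, an alternative chosen after seeing the data, gave 3 regions in the 19p12 window and 9 in the 19q13.4 window.

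By size of enrichment the members fell into a higher and a lower group among reproducible regions. Their median of the mean log2 fold was 4.86, beside 4.62 over all 1699, and 5 of the 9 lay above that value. All 5 were the stretch's 4 regions and chr19:56769720-56770015, and 3 of those 4 abut on the minus strand. The highest member, 58769893 to 58770083, ranked 299 of 1699, the next 300, and the last of these 5 ranked 646. The members below the median ranked 1434 to 1597, with the 19p12 pair at 1502 and 1595. Enriched member peaks reached log2 5.79 in the 19p12 window and 6.504 in the 19q13.4 window, and the rest of chromosome 19 reached 9.35.

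Several stretches passed both thresholds in libraries 3 and 4 and not in 1 and 2, in the third of them by the fold threshold alone. Description codes in the labels place libraries 1 and 2 in one set and libraries 3 and 4 in another. Of the 32 merged regions, 5 in 3 separate stretches were enriched in libraries 3 and 4 and in neither of the others (15.63%), beside 1.97% of all merged regions. Peaks that abut without a shared base stay separate regions, so the 3 stretches count as 5 in that share. Since libraries 3 and 4 count as 1 sample, each of these rests on 1 sample. They were picked out after their values were seen.

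The first is chr19:22877620-22877705, minus strand, in the 19p12 window. Library 3 reached 5.79 (26 reads over 1) and library 4 reached 5.002 (44 over 2). Library 2 reached 1.62 with a −log10 p of 27.0, and library 1 lay below input at -0.61 and -1.82. Libraries 3 and 4 were thus high and library 1 low at the same bases, and so high a −log10 p at so low a fold in library 2 takes many reads in both immunoprecipitation and input. These stretches gave 2 of library 3's 4 and 3 of library 4's 8 enriched 19p12 peaks.

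The second, chr19:58874860-58874907, plus strand, is 48 bases long. Library 4 listed it as 4 abutting peaks of 7 to 21 bases with the same 38 reads over 2 and the same log2 fold of 4.79. Library 3 had 3 abutting peaks of 4 to 36 bases at 4.54, 4.73 and 4.67, from 22 to 25 reads over 2. Libraries 1 and 2 had at most 0.93 and 0.74, from 3 reads over 5 and 8 over 5. Abutting peaks with equal read numbers are hardly separate measurements, although each counts as a listed and enriched peak above.

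The third, chr19:59061948-59062047, plus strand, passed the p threshold in all 4 libraries. The log2 fold was 3.54 in library 3 (−log10 p 25.7) and 4.54 in library 4 (35.6). Libraries 1 and 2 were well above input too, at 2.67 (10.2, 30 reads over 15) and 2.502 (56.6), and missed the 8-fold threshold. Here all 4 libraries were above input with a −log10 p over 10, and the threshold on fold set the count of libraries. Just before it on the same strand, the fold was lower: 0.77 in library 1 from 59061831 to 59061950, 1.32 in library 2 from 59061827 to 59061892 and 2.19 in library 4 from 59061828 to 59061890.

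A stretch of the opposite kind, enriched in 1 library yet above input in the others, was chr19:58134236-58134434, plus strand. Library 4 stood at 4.71 from 18 reads over 1, and libraries 1 and 2 at 2.99 (20 over 8, −log10 p 7.83) and 2.65 (78 over 13, 11.3). Library 3 had 1.89 from 7 over 4. The fold of library 4 rests on 1 input read, and the working back of reads does not separate an input of 0 from 1.

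**Figure D5:**
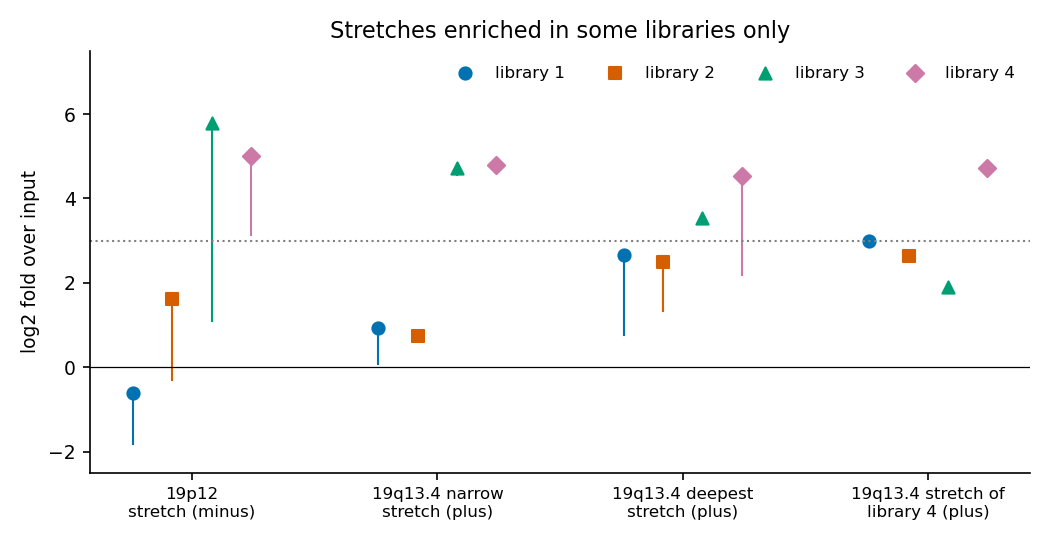
Highest log2 fold over input of the listed peaks on 4 stretches in each library (symbols, vertical axis), with a thin line down to the lowest peak of the same stretch, a dotted line at the threshold of 3 and a solid line at 0. In the first 3 stretches libraries 3 and 4 lie above 3 and libraries 1 and 2 below, and in the last only library 4 is above 3.

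The overlap of enriched member peaks between libraries is given beside the same share over all chromosomes. Of library 3's 14 enriched peaks, 85.7% overlapped an enriched peak of library 4 (81.8% over all chromosomes), 35.7% one of library 2 (78.1%) and 35.7% one of library 1 (63.6%). Of library 4's 25, 48.0% overlapped library 3 (59.6%), 48.0% library 2 (72.7%) and 40% library 1 (57.4%). Of library 1's 19, 78.9% overlapped library 2 (59.1%), 73.7% library 4 (52.4%) and 31.6% library 3 (42.7%). Of library 2's 19, 68.4% overlapped library 1 (42.4%), 68.4% library 4 (47.8%) and 21.1% library 3 (37.2%). These member counts are small, abutting peaks of 1 stretch are counted singly, and the differences from all chromosomes were not tested.

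Stretches listed repeatedly were not always enriched. Of the 13 listed in at least 3 libraries in the 19p12 window, 5 were enriched in none, and of the 19 in the 19q13.4 window, 4 were enriched in none. These are 38.5% and 21.1%, beside 44.8% on the rest of the chromosome and 47.2% over all chromosomes. An example is chr19:58399893-58400000, minus strand, listed in all 4 libraries at log2 folds of 1.67, 0.80, 1.09 and 0.54 with no −log10 p above 1.18. At 20219550 to 20219617, plus strand, libraries 1, 3 and 4 gave 1.25, 1.09 and -0.87. On the minus strand, 3 neighbouring stretches between 20342319 and 20342746 were each listed in 3 libraries. The first had 2.56, 4.09 and 2.86 in libraries 2, 3 and 4, and library 3 was enriched, with 8 reads over 1. The second had 2.38, 2.67 and 2.86, and the third had 3.67, 0.91 and 2.67 in libraries 1, 2 and 3, all short of the p threshold.

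None of the listed peaks nearest to the window edges was enriched. Inside the start of the 19p12 window the first was 19826229 to 19826301 (log2 2.06, library 2), and the nearest outside was 19791815 to 19791875 (-0.19, library 4). At its end the last inside was 24311275 to 24311339 (2.38, library 2), and the next outside lay at 28191961 to 28192070 (1.06, library 2), across the centromere. The first inside the 19q13.4 window was 56598847 to 56598868 (-0.94, library 2), and the nearest outside was 56212409 to 56212476 (3.67, library 1, −log10 p 1.88). The last listed peak of the chromosome ended at 59097516.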

How the data were processed

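Each of the 4 eCLIP libraries (paired reads of 75 nt) has 1 peak list, and the submitters' processing notes name build hg19. The deposited values are, per peak, a log2 fold of immunoprecipitation over input and a −log10 p of that comparison, both made by the authors. Not given in the sources used here are the peak caller, the aligner and the input that served each list. Many −log10 p stand at 15.6576 (15.7 when rounded) and some at 400, with other values between, and peaks at either one have no order. Read numbers per peak were worked back from both values (within 0.003 of p) for 90.4% to 97.0% of the peaks above input and under 15.7. The fit gave a depth of input over immunoprecipitation of 3.18, 1.04, 2.12 and 1.46, so 7, 13, 8 and 10 reads over 1 input read sufficed to be enriched in libraries 1 to 4. Total reads per library are unknown. A region's value in a library is its highest enriched peak or, failing that, its highest listed peak.

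Comparisons are within each library, with libraries 3 and 4 averaged, and were tested over 3 samples by exact permutation of signs, two-sided. Regions named are all reproducible regions of both windows, any run of at least 3 on 1 strand with gaps of at most 5 kb, and the peaks next to the window edges. Others were named after their values were seen. The members and lists were chosen with earlier results of these data known. Reading back and merging were tested on simulated data. Python 3.11.15, pandas 2.3.3, numpy 2.4.6 and scipy 1.17.1 were used.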

Additional observations from a re-analysis of the deposited data

Results flagged for a closer look

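Of 22 quantities compared over the 4 libraries, 2 had a library far from the others by Dixon's criterion for 4 values, and chance gives about 1.1. Library 2 listed 332 peaks in the 19p12 window, where the next highest listed 81, so its distance made up 0.857 of the whole range. It listed 311 in the 19q13.4 window, where the next highest listed 77, a distance of 0.918 of the range. Library 2 has the longest list over all chromosomes as well, 118375 peaks.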

How the results depend on the processing

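No paired analysis was possible because input libraries enter solely through the deposited fold; shares of windows were already compared within each library. The lower enriched share of the 19p12 window kept its direction under all alternatives run (-12.2 to -6.39 points), and so did the difference between the windows (6.72 to 17.0 points) and the denser listing of the 19q13.4 window (1.65 to 2.93 times). Asking for at least 13 reads could not be run for 19p12, where no peak of library 1 was known to reach that number. The 19q13.4 window against the rest of the chromosome, 2.81 points, turned to -5.16 against the last 2.6 Mb of other chromosomes and to -3.00 without the stretch enriched on both strands, an alternative chosen after seeing the data; with at least 13 reads it was 7.96. The cause was not tested. Without 1 library each it was 1.07 to 5.13 points. Reproducible regions, 2 in 19p12 and 7 in 19q13.4, numbered 5 and 12 for at least 2 libraries, 0 and 3 for all 4, and 0 and 4 with a −log10 p of at least 5. With 50% of the shorter peak shared they were 1 and 8, and without the both-strand stretch 19q13.4 had 3. Leaving out 1 library and asking for 2 of the remaining 3, 19p12 had 2 to 5, with 5 without library 1 and 4 without library 2, and 19q13.4 had 9 to 10. Libraries and number asked for changed together there. Each mean of the 9 named regions moved by less than its SD without any 1 library. Depth limits folds that rest on 1 input read.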
